A study of Homo sapiens with 8 samples.

Results

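Telomerase adds telomeric repeats to chromosome ends, and shelterin coats those repeats and controls access to them. The set described here holds 10 genes chosen by name: TERT, the H/ACA proteins DKC1, NOP10, NHP2 and GAR1 of the telomerase holoenzyme, and the shelterin genes TERF1, TERF2, TINF2, POT1 and ACD. All 10 were found among the 13546 genes of the deposited count table. That TERT varied widely between tumours while its partners did not was known when the set was drawn up, so the spread is given as a description without a test. The libraries came from tumours that grew in nude mice after injection of MDA-MB-231, an established human triple-negative breast cancer cell line. In 4 tumours the injected cells had genotype CDK4WT, with intact CDK4, and in 4 they had genotype CDK4KO, with CDK4 knocked out. No treatment or time point is given for either genotype. The labels do not say how CDK4 was disrupted, whether the knockout cells are 1 clone, or whether each tumour came from its own mouse, so a p-value here reflects the spread among these libraries and no more. Nude mice lack mature T cells but supply the vessels, fibroblasts and other immune cells of the tumour.

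TERT is the reverse transcriptase subunit of telomerase, and its transcription is the step at which most human somatic cells switch telomerase off and most cancers switch it on. DKC1 (dyskerin), NOP10, NHP2 and GAR1 bind the H/ACA domain of the telomerase RNA and also build the particles that pseudouridylate ribosomal RNA, so every growing cell needs them. In shelterin, TERF1 and TERF2 bind duplex telomeric DNA, POT1 binds the single-stranded end, ACD (TPP1) pairs with POT1 and recruits telomerase, and TINF2 (TIN2) links the parts.

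The counts per library ranged from 27840883 to 33617977 in all. Levels are in CPM, a gene's count scaled to a common library size after TMM adjustment, a correction for library composition. The correlation of log2 CPM between a library and others of its genotype averaged 0.992 to 0.995 for CDK4WT tumours and 0.985 to 0.989 for CDK4KO tumours, with CDK4KO replicates 1 and 4 at the bottom. CDK4 itself stood at 113 CPM ± 4.04 (SD, n = 4) in CDK4WT tumours, against 122 CPM ± 9.66 (SD, n = 4) with the knockout, a log2 fold change of 0.12 ± 0.06 (SE, edgeR adjusted p = 0.477; all fold changes are CDK4KO minus CDK4WT). Since a disrupted gene can still be transcribed, the genotype labels could not be checked on it. Of 13 markers of the cell line 12 were in the table, VIM at 9818 CPM in CDK4WT among them. Of 10 luminal and epithelial genes 7 were in it (ERBB2, GATA3, FOXA1, KRT8, KRT18, KRT19 and EPCAM), while ESR1, PGR and CDH1 were not. Those 7 summed to 941 to 988 CPM in CDK4WT and 926 to 1052 CPM in CDK4KO. Some markers of host-type cells were present too. Endothelial genes (10 of 13 in the table; CDH5, EMCN and CLDN5 were not) summed to 341 to 382 CPM in CDK4WT and to 403 to 469 CPM in CDK4KO. This sum was higher in CDK4KO without overlap, as were 3.87% of all genes taken singly. Fibroblast and pericyte genes (9 of 12, without DCN, LUM and PDGFRA) overlapped, at 871 to 1291 CPM in CDK4WT and 754 to 1301 CPM in CDK4KO. Immune genes (6 of 15, CD68 among the absent) overlapped too, at 72.8 to 113 CPM and 86.0 to 172 CPM. In bulk tissue, fewer cells of a type and less RNA per cell cannot be told apart.

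Because the results turn on the TERT transcript, the stretch before its start is shown beside that of NOP10, a partner with a steady level whose window holds the same E-box. The bases are RefSeq sequence (GRCh38.p14, minus strand of both genes, 5′ to 3′), ending where the first annotated exon begins. Capitals mark the E-box CACGTG, which reads the same on both strands and is the site of MYC/MAX, USF1 and BHLHE40, the GC box GGGCGG or its complement CCGCCC, bound by SP1, and the ETS core CCGGAA or its complement TTCCGG.
TERT (chr5:1295070-1295318): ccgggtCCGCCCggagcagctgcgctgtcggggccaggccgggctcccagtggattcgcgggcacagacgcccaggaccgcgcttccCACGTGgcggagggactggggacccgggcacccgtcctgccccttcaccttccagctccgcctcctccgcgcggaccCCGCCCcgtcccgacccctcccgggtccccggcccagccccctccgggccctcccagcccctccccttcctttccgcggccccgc
NOP10 (chr15:34343178-34343386): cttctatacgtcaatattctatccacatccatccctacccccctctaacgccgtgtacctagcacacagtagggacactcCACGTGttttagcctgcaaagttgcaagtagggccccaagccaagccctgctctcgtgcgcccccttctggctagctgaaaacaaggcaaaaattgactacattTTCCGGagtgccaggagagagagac
The 249 bases of TERT hold 1 E-box and 2 GC boxes, and the 209 bases of NOP10 hold 1 E-box and 1 ETS core. Windows of 250 bases before the RefSeq start were searched for the 8 members with an entry (10 windows). An E-box was found for TERT and NOP10, a GC box in 8 windows and an ETS core in 4. The searched NOP10 window runs past the 209 bases shown into the first annotated exon and holds 2 E-boxes and 2 ETS cores. That of TERT holds 1 E-box and 2 GC boxes. Among 35116 such windows over all genes, 6.35% held the E-box, 42.6% the GC box and 14.5% the ETS core. A match describes the letters of the reference sequence only. The sequence carried by these tumour cells was not examined, so a site gained or lost in them would not show.

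TERT (ENSG00000164362, chromosome 5, 1253147 to 1295069, hg38, protein-coding, minus strand) had the widest range of the 10 genes. Its level in CDK4WT replicates 1 to 4 was 23.8, 4.75, 5.52 and 3.12 CPM. In CDK4KO replicates 1 to 4 it was 3.28, 0.542, 1.68 and 2.85 CPM. A single CDK4WT tumour therefore stood far above the rest and a single CDK4KO tumour far below, and the genotypes overlapped where CDK4KO replicate 1 exceeded CDK4WT replicate 4. The highest level was 44.0 times the lowest. These levels rest on 750 counts in CDK4WT replicate 1 and 18 counts in CDK4KO replicate 2, with exact 95% Poisson intervals of 22.1 to 25.6 CPM and 0.321 to 0.856 CPM, which cover counting error only. The interval of each of these tumours lies apart from those of all other libraries. No other annotated gene shares bases with TERT.

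**Figure D1:**
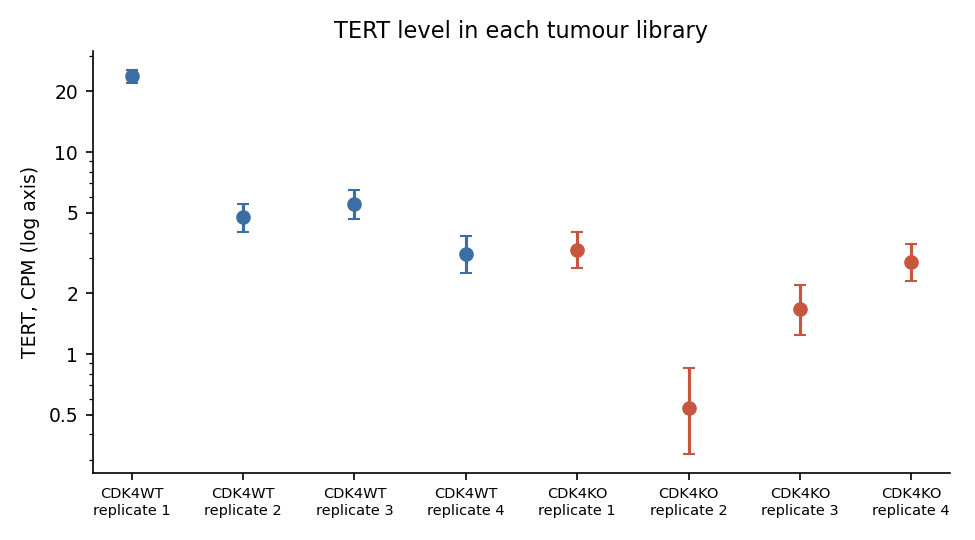
TERT in CPM (log axis) in each of the 8 tumour libraries, CDK4WT in blue and CDK4KO in red; bars are exact 95% Poisson intervals of the count. CDK4WT replicate 1 sits at 23.8 CPM and CDK4KO replicate 2 at 0.542 CPM, with the other 6 libraries between 1.68 and 5.52 CPM.

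The coefficient of variation (CV) put a size on this spread. Within a genotype, as SD over that genotype's own mean, it was 105% for TERT in CDK4WT and 59.1% in CDK4KO. For the order of genes, the within-genotype SD was pooled and divided by the mean of all 8 libraries, which gave TERT a pooled CV of 122%, where counting error alone would give 7.55%. This pooled CV exceeds the CV of either genotype because the mean of all 8 libraries is lower than that of CDK4WT, the genotype with the larger SD. By it, 5 of the 13546 genes had a larger value, PAEP, PAGE5, SORCS3, CPNE7 and WDR72, which puts TERT at rank 6. By the root mean square of the CVs of each genotype, a measure added after seeing the data, TERT had 84.9% and rank 16. Low genes vary more, but of the 2308 genes with a mean level within 2-fold of TERT's, 4 had a pooled CV at or above it, TERT included, and their median was 13.7%. CDK4WT replicate 1 carried 64.0% of the summed TERT level of its genotype, at 5.33 times the mean of the other 3 tumours, which stood at 4.47 CPM ± 1.23 (SD, n = 3). Without it the pooled CV was 37.6%. CDK4KO replicate 2 stood at 0.208 times the mean of the other CDK4KO tumours.

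Other measures of these libraries were set beside TERT. The summed level of the skeletal muscle markers in the table (DES, ACTA1, TTN and ENO3, 4 of 12; CKM and the fast myosins MYH1, MYH2 and MYH4 were not in it) was also highest in CDK4WT replicate 1, at 59.1 CPM against 35.0 to 45.2 CPM in the other CDK4WT tumours and 30.2 to 38.1 CPM in CDK4KO. ACTA1, skeletal muscle actin, stood at 23.0 CPM there and at 3.18 to 11.3 CPM elsewhere, and the part of such RNA in the TERT level was not tested. The proliferation markers (14 of 14 in the table) summed to 1975 CPM in CDK4WT replicate 1 and 1941 CPM in CDK4KO replicate 2, between the 1576 CPM and 2062 CPM of CDK4WT replicates 4 and 2. The library totals of the tumours with the highest and lowest TERT were 31066292 and 33307113 counts, within the range of the others.

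The partners of TERT in the holoenzyme were steady. DKC1 (chromosome X, 154762742 to 154777689) was at 125, 137, 138 and 122 CPM in CDK4WT replicates 1 to 4. In CDK4KO replicates 1 to 4 it was at 113, 136, 123 and 130.2 CPM. These 8 levels overlap between the genotypes and span 1.23-fold. NOP10 (chromosome 15, 34341713 to 34343177) ranged from 35.9 to 45.8 CPM, both ends in CDK4KO. NHP2 (chromosome 5, 178149460 to 178153967) ranged from 66.1 to 79.3 CPM and GAR1 (chromosome 4, 109815510 to 109824740) from 30.5 to 36.5 CPM. NHP2 shares 27.4% of its exon bases with RMND5B on the opposite strand, and 2 pseudogenes carry its name, so part of its count is uncertain.

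Shelterin genes kept within narrow bounds as well. TERF1 (chromosome 8, 73008864 to 73048122) was at 20.9, 21.1, 20.9 and 21.8 CPM in CDK4WT replicates 1 to 4 and at 17.2, 21.8, 19.8 and 19.5 CPM in CDK4KO. CDK4KO replicate 1 was the low tumour, and 5 annotated pseudogenes carry the gene's name, so reads may be split among copies. TERF2 (chromosome 16, 69355561 to 69408571) ranged from 30.0 to 33.6 CPM and POT1 (chromosome 7, 124822386 to 124929983) from 26.1 to 29.2 CPM. TINF2 (chromosome 14, 24239643 to 24242674) ranged from 42.5 to 48.0 CPM, and ACD (chromosome 16, 67657512 to 67660815) from 21.9 CPM in CDK4WT replicate 1 to 26.4 CPM in CDK4KO replicate 1. TERF2IP, which encodes RAP1, the remaining shelterin subunit, was at 41.5 to 46.7 CPM.

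Over the 9 partners the highest library was 1.12 to 1.28 times the lowest. Their pooled CV ran from 3.91% (TINF2) to 8.95% (NOP10), and all 9 lay below the 9.33% that was the median of all genes. Low genes vary more, and no median for genes at the partners' own levels is given here. In each of the 9 the CV over the genotype's own mean was larger in CDK4KO (5.02% to 11.8%) than in CDK4WT (1.92% to 6.43%). The same held for 67.5% of all genes, whose median CV was 10.02% in CDK4KO and 7.18% in CDK4WT.

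**Figure D2:**
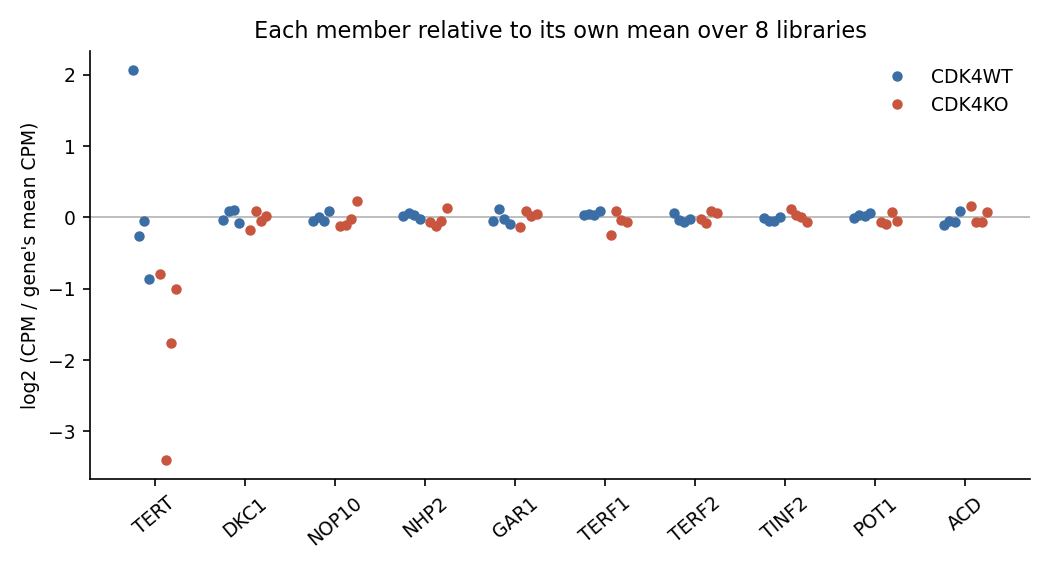
Level of each member in each library, as log2 of its CPM over its own mean in all 8 libraries; CDK4WT in blue, CDK4KO in red, 1 point per tumour. TERT spans 44.0-fold, while no partner spans more than 1.28-fold.

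**Figure D3:**
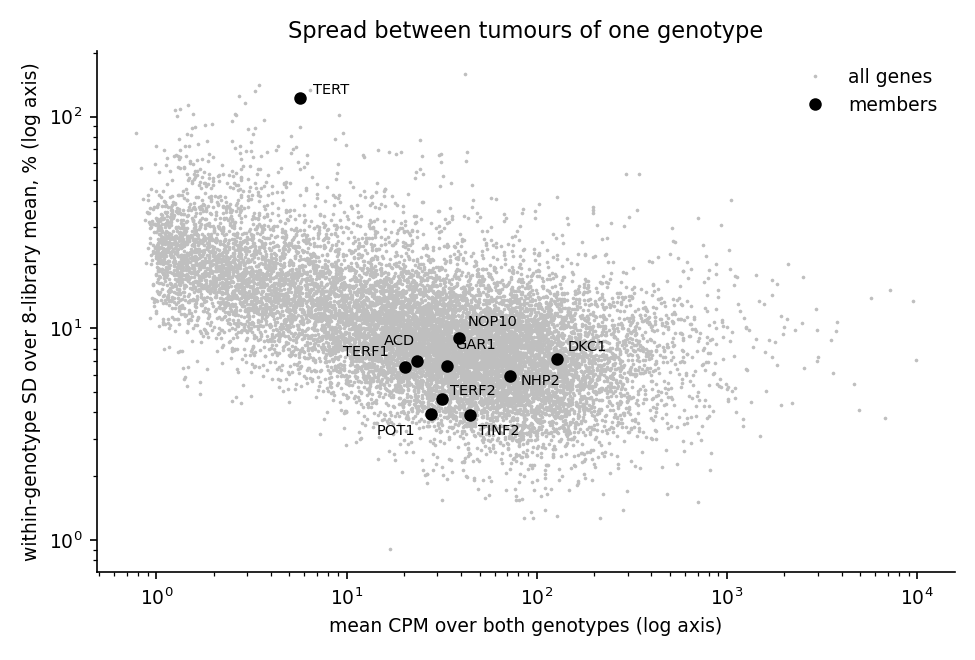
Pooled CV, the within-genotype SD over the mean of all 8 libraries (percent, log axis), against mean CPM (log axis) for all 13546 genes in grey and the 10 members in black. TERT, at 122%, lies at the upper edge of the cloud, and its 9 partners lie between 3.91% and 8.95%, in the lower part.

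Ratios within a library do not depend on how libraries are scaled. For each 1000 DKC1 counts, CDK4WT replicates 1 to 4 had 190.1, 34.7, 39.96 and 25.6 TERT counts. CDK4KO replicates 1 to 4 had 29.1, 3.99, 13.6 and 21.9. The highest TERT ratio was thus 47.6 times the lowest, with the same tumours at both ends. GAR1 counts per 1000 DKC1 counts ran only from 240.3 to 276, those of NHP2 from 487 to 611 and those of NOP10 from 267 to 352. Shelterin ratios spanned between 1.19-fold (TERF1) and 1.44-fold (ACD).

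Levels were ordered per length, as mean CPM per kilobase of exon over the 8 libraries. NOP10 was highest at 70.6 ± 5.85, followed by NHP2 at 47.8 ± 2.74 and DKC1 at 30.5 ± 2.11 (SD, n = 8). GAR1 at 16.4 ± 1.01 and TINF2 at 16.3 ± 0.666 came next and did not differ beyond their spread. ACD stood at 7.28 ± 0.501, TERF2 at 5.61 ± 0.251, POT1 at 4.69 ± 0.195 and TERF1 at 2.31 ± 0.171. TERT was lowest at 1.24 ± 1.63, and its spread reaches past TERF1. By genotype, TERT was at 2.02 ± 2.11 in CDK4WT and 0.454 ± 0.268 in CDK4KO per kilobase (SD, n = 4 each), against 16.3 ± 1.05 and 16.5 ± 1.13 for GAR1, the lowest of the 4 H/ACA genes. The order depends on the gene model: with the longest transcript as the length NHP2 (83.4) passed NOP10 (70.6), and TERF2 (10.6) passed ACD (9.29). By that length the spread of TERT (1.42 ± 1.86) did not reach TERF1 (5.67 ± 0.419). GAR1 (27.4 ± 1.70) then lay above TINF2 (20.4 ± 0.833) beyond their spread (SD, n = 8).

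The comparison of the genotypes asked whether the telomerase and shelterin genes differ between CDK4KO and CDK4WT tumours. TERT averaged 9.30 CPM ± 9.72 over the CDK4WT tumours and 2.09 CPM ± 1.235 over the CDK4KO tumours (SD, n = 4 each). The log2 fold change of -2.17 ± 0.75 (SE) corresponds to a 4.49-fold lower level in CDK4KO and was one of the 4 lowest in the table. The difference did not pass edgeR's quasi-likelihood test over all genes (adjusted p = 0.284, unadjusted p = 0.0193). Much of its size comes from 1 library: without CDK4WT replicate 1 the log2 fold change was -1.10 (adjusted p = 0.483), and without both that library and CDK4KO replicate 2, a choice made after seeing the data, it was -0.78 (adjusted p = 0.444).

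For the partners the differences were small. The largest was that of TERF1, at -0.11 ± 0.08 on the log2 scale, from 21.2 CPM ± 0.408 to 19.6 CPM ± 1.85. DKC1 had -0.06 ± 0.07, NHP2 -0.05 ± 0.06 and POT1 -0.05 ± 0.06. The other 5 had positive log2 fold changes, namely ACD at 0.06 ± 0.08, TINF2 at 0.05 ± 0.06, TERF2 at 0.03 ± 0.07, GAR1 at 0.016 ± 0.07 and NOP10 at 0.0019 ± 0.08. The sign of the NOP10 value flips under upper quartile scaling. None of the 9 passed (edgeR adjusted p from 0.588 to 0.995).

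Over all 10 members, 0 passed the test, beside 0.0591% of all genes (0.0443% higher and 0.0148% lower in CDK4KO), and DESeq2 and limma voom also called 0, beside 2.33% and 2.1%. At an unadjusted p under 0.05 there was 1 member, TERT, by each of these tools, where edgeR had 13.0% of all genes. The genotypes did not separate in any member, beside 7.68% of all genes. The median log2 fold change of the 10 was -0.023, with 5 above and 5 below 0, and that of all genes was 0.0037.

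**Figure D4:**
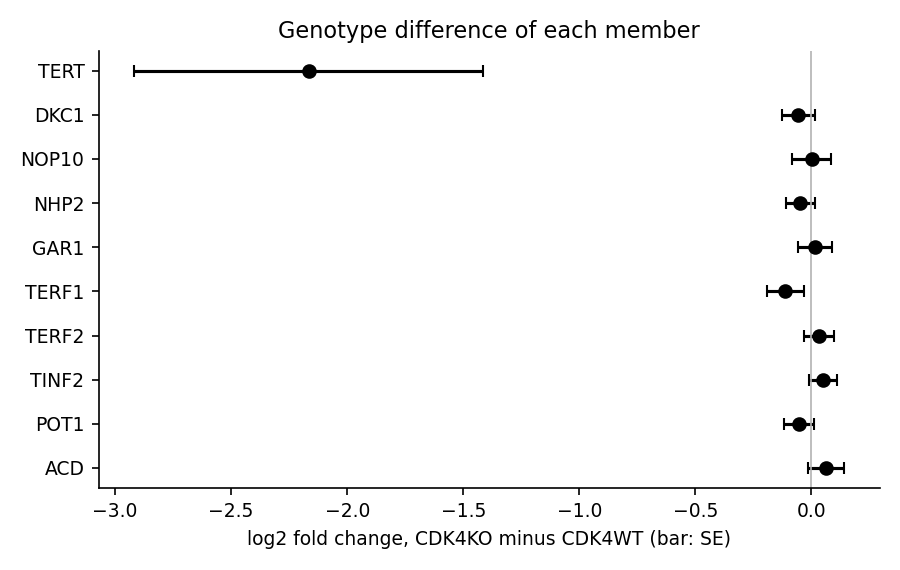
Log2 fold change, CDK4KO minus CDK4WT, of each member with its SE as the bar (n = 4 tumours per genotype). TERT lies at -2.17 with a bar of 0.75, and the 9 partners lie between -0.11 and 0.06.

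The measured genes around TERT on the short arm of chromosome 5 spanned at most 3.14-fold between libraries, against 44.0-fold for TERT. CLPTM1L, the nearest measured gene on one side, was at 154 CPM in CDK4WT replicate 1 and at 133 to 138 CPM in the other CDK4WT tumours, and at 130.2 to 137 CPM in CDK4KO. SLC12A7, a potassium-chloride cotransporter and the nearest on the other side, was at 27.1 CPM in CDK4WT replicate 1 and 29.7 CPM in CDK4KO replicate 2, inside its range of 17.9 to 35.0 CPM. CLPTM1L was thus highest in CDK4WT replicate 1, as TERT was, while SLC12A7 had neither end of its range in the tumours at the ends of the TERT range. Whether the region has a part in the TERT spread was not tested. Over the 14 measured neighbours of 23 listed, the median pooled CV was 7.24%, 3 were highest in CDK4WT replicate 1, and 2 (TPPP and ZDHHC11, both low) had a range of 2-fold or more. None was called, and by p the closest were LPCAT1 at 0.17 ± 0.07, ZDHHC11 at 0.45 ± 0.19, BRD9 at -0.13 ± 0.06 and CCDC127 at 0.16 ± 0.08 on the log2 scale (edgeR adjusted p from 0.294 to 0.407).

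**Figure D5:**
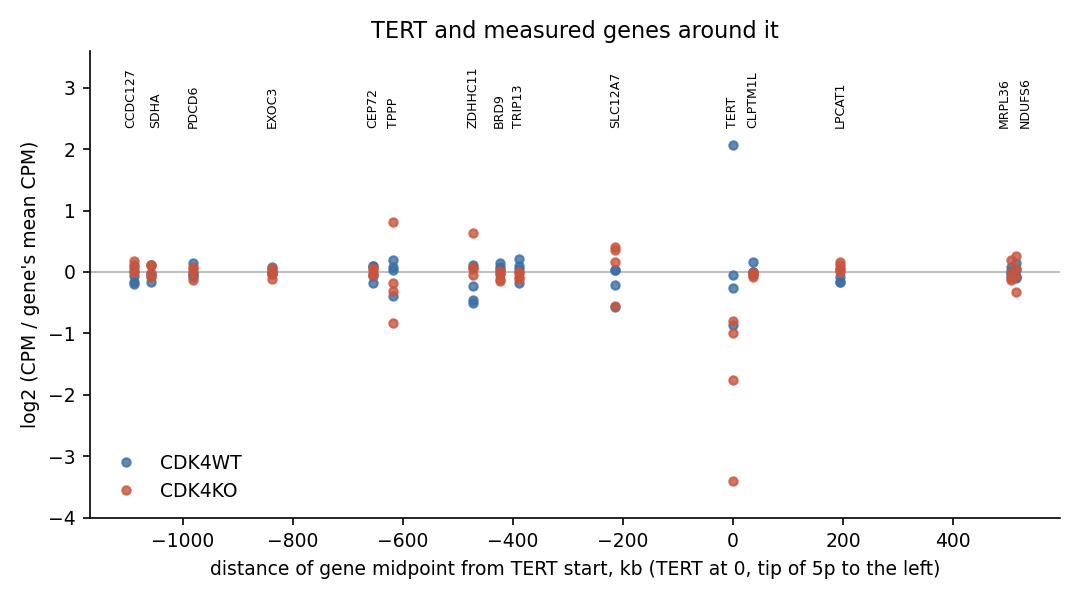
TERT and 14 measured genes of the 5p15.33 region by distance of the gene's midpoint from the TERT start (kb), each as log2 of its CPM over its own mean; CDK4WT in blue, CDK4KO in red, 1 point per tumour. Apart from TERT, only TPPP and ZDHHC11 span 2-fold or more.

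Genes that assemble telomerase were examined next: of 23 listed, 22 were measured, and 11 had positive and 11 negative log2 fold changes. By edgeR, DESeq2 or limma voom 0 passed. In edgeR 2 had an unadjusted p under 0.05, beside 13.0% of all genes. The telomerase RNA gene TERC is not among the rows of the table, so the RNA subunit was not analysed here. TEP1, a telomerase-associated protein also found in vaults, was at 65.8 to 69.5 CPM in CDK4WT and 71.7 to 83.2 CPM in CDK4KO (log2 fold change 0.17 ± 0.06). RUVBL2, the reptin ATPase that helps assemble the TERT complex, was at 121, 115, 113 and 110.2 CPM in CDK4WT replicates 1 to 4 and at 108, 99.5, 102 and 107 CPM in CDK4KO (-0.14 ± 0.05). In TEP1 and RUVBL2 the genotypes did not overlap, in opposite directions, beside 3.87% of all genes higher and 3.81% lower in this way. PARN, which trims the telomerase RNA, and STUB1, an E3 ubiquitin ligase, had -0.12 ± 0.06 and 0.08 ± 0.05, with edgeR adjusted p of 0.274 to 0.572 over these 4 genes. WRAP53 (TCAB1), which carries telomerase to Cajal bodies, averaged 26.8 CPM ± 1.88 and 26.5 CPM ± 1.475 (SD, n = 4 each).

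In the list of the CST complex, which ends telomere extension, and of telomere replication, 21 of 22 genes were measured. By edgeR, DESeq2 or limma voom 0 passed, with 0 at an unadjusted p under 0.05 in edgeR, beside 13.0% of all genes. The members of this list with the smallest p were TIMELESS at 0.12 ± 0.07, POLA2 at 0.19 ± 0.13, PRIM1 at -0.15 ± 0.11 and the CST subunit STN1 at 0.15 ± 0.12. In the list of shelterin partners and telomere chromatin, 38 of 38 were measured, with 22 positive and 16 negative log2 fold changes. By edgeR 0 passed, with 2 at an unadjusted p under 0.05, beside 13.0% of all genes. CBX5, the heterochromatin protein HP1-alpha, was at 132 to 162 CPM in CDK4WT and 169.8 to 207 CPM in CDK4KO (0.34 ± 0.08, edgeR adjusted p = 0.151), and DESeq2 called it (adjusted p = 0.0183). ATM, the DNA damage kinase, was at 104 to 112 CPM in CDK4WT and 109 to 152 CPM in CDK4KO (0.29 ± 0.09), and limma voom called it (adjusted p = 0.034). Over all genes, DESeq2 called 2.33% and limma voom 2.1%. CBX3 and the tankyrase TNKS, which releases TERF1 from telomeres, had -0.12 ± 0.06 and -0.16 ± 0.09.

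Of 51 listed regulators of TERT transcription 48 were measured, 27 with positive and 21 with negative log2 fold changes. By edgeR 0 passed (4 at an unadjusted p under 0.05), while DESeq2 called BHLHE40 and KLF2 and limma voom KLF2. Over all genes, 13.0% had such an unadjusted p in edgeR, and DESeq2 and limma voom called 2.33% and 2.1%. BHLHE40, a hypoxia-inducible repressor that binds E-boxes, was at 274, 346, 343 and 422 CPM in CDK4WT replicates 1 to 4 and at 225, 286, 265 and 182 CPM in CDK4KO (-0.53 ± 0.16, edgeR adjusted p = 0.219). The tumours at both ends of the TERT range, CDK4WT replicate 1 and CDK4KO replicate 2, had similar BHLHE40 levels of 274 and 286 CPM. KLF2, a factor abundant in endothelium, was at 54.9 to 76.0 CPM in CDK4WT and 70.3 to 96.1 CPM in CDK4KO (0.44 ± 0.12). It moved with the endothelial markers given above, and their part in its level was not tested. SMYD3, a lysine methyltransferase, was at 17.2 to 18.2 CPM in CDK4WT and 14.5 to 16.6 CPM in CDK4KO (-0.20 ± 0.07), and the E-box factor USF1 had -0.27 ± 0.11.

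The best-known activators of TERT showed no such range as TERT itself. MYC was at 196, 224, 224 and 275 CPM in CDK4WT replicates 1 to 4 and at 187, 224, 233 and 190.2 CPM in CDK4KO. GABPA, an ETS family factor, was at 32.1 to 35.2 CPM in CDK4WT and 32.8 to 36.5 CPM in CDK4KO. Their log2 fold changes were -0.14 ± 0.11 and 0.05 ± 0.06, and neither passed (edgeR adjusted p = 0.619 and 0.791). These are transcript levels only, and the part of either factor in the TERT level was not tested.

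Genes whose levels followed TERT most closely were found by Pearson correlation of log2 CPM over the 8 libraries, among 11407 genes with an average log2 CPM of at least 2. The values are a description of these libraries, which share the extremes of CDK4WT replicate 1 and CDK4KO replicate 2. FBP1, a gluconeogenic phosphatase, had r = 0.964, and was at 10.7, 7.41, 6.03 and 4.75 CPM in CDK4WT and 4.75, 2.74, 4.11 and 4.22 CPM in CDK4KO, replicates 1 to 4. DESeq2 called FBP1 lower in CDK4KO (adjusted p = 0.034), beside 2.33% of all genes called in either direction, and edgeR did not (adjusted p = 0.195). FBP1 shared both ends with TERT, as did RUVBL2, B3GALT9, TCEANC2 and RPS3P3, but spanned 3.92-fold. RUVBL2 was next at r = 0.963, with a span of only 1.22-fold, followed by B3GALT9 (0.958), TCEANC2 (0.922) and the pseudogene RPS3P3 (0.919). Without the 2 extreme libraries r over the other 6 was 0.837 for FBP1 and 0.948 for RUVBL2. It was 0.832 for B3GALT9, 0.764 for TCEANC2 and 0.796 for RPS3P3. At the other end were DNAJB14 (-0.969), SH3RF1 (-0.963) and FAM53C (-0.958), at -0.902, -0.632 and -0.9945 over the 6. These genes were picked by r over all 8 libraries, so the values over 6 of them are no separate check. The 9 partners lay between -0.369 (GAR1) and 0.526 (NHP2) over the 8 libraries. Over the 6 without the extremes they ran from -0.914 (TERF2, at 0.28 over all 8) to 0.552 (DKC1, at -0.105 over all 8), so that the place of a partner depends on those 2 libraries.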

How the data were processed

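The deposited values are unnormalized read counts by Ensembl gene for 8 tumour libraries, in 1 table. Per the submitters' processing notes, cutadapt, STAR 2.7.11a, featureCounts 2.0.4 and DESeq2 1.46.0 were used on hg38. Not given in the sources used here were the annotation release, the strand setting and how mouse reads were handled, so counts may include host reads that align to human genes. Each of the 13546 genes exceeds 1 CPM in at least 4 libraries, so lower genes had been left out. CDK4KO columns carry the library numbers and were matched to replicates 1 to 4 through them.

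Symbols were matched for 13524 identifiers, and coordinates and exon lengths come from GENCODE 29 (hg38). The genotypes were compared with edgeR 4.0.16 in R 4.3.3: TMM scaling, filterByExpr (0 genes removed), robust dispersions and quasi-likelihood F tests. All 13546 p-values were adjusted together by the Benjamini-Hochberg method, and a gene was called at an adjusted p under 0.05. Each SE is the one implied by the F statistic, and log2 CPM had a prior count of 2. DESeq2 1.42.0, limma 3.58.1 (voom with quality weights), other scalings and filters, a replicate block and each library left out were alternatives. Steps were tested on simulated data. Depth was 27840883 to 33617977 counts, and counting error was small beside the spread of TERT but made up much of the small spread of partners such as POT1 (a CV of 3.44% from counting alone, beside a measured 3.92%) and TINF2 (2.71% beside 3.91%).

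Members and lists were chosen with earlier results of these data known. Named genes are the members, CDK4, up to 4 genes of smallest p per list, the 5 genes most and 3 least correlated with TERT, and the neighbours of TERT. TERF2IP, WRAP53, MYC, GABPA, ACTA1, VIM, TPPP and the genes with a larger CV than TERT were named after their values were seen.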

Additional observations from a re-analysis of the deposited data

Results flagged for a closer look

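In groups of 4 libraries, a highest or lowest value was picked out where its gap to the nearest other library exceeded, as a share of the group's whole range, Dixon's 95% critical value. Genes chosen for their spread or for following TERT, TERT included, were left out, since their choice fixes the outcome. Of 78 groups 3 were picked out. Chance picks out about 1 in 20 groups of genes named without regard to their values, which most of these genes were not.

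Next to TERT, CLPTM1L was low in CDK4KO replicate 1, at 130.2 CPM against 136 to 137 CPM, and ZDHHC11 was high in CDK4KO replicate 4, at 6.45 CPM against 4.03 to 4.41 CPM. Of the regulators, KLF2 was high in CDK4WT replicate 4, at 76.0 CPM against 54.9 to 58.4 CPM.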

How the results depend on the processing

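TERT kept its negative direction and stayed short of the threshold under all 20 alternatives run, with log2 fold changes of -3.09 (without both CDK4KO libraries 1 and 4) to -0.78 and adjusted p of 0.124 to 0.483. No member was called under any of them. Its CV was 37.6% to 129% with 1 library left out, lowest without CDK4WT replicate 1, and its rank by spread went from 6 to 27 when the SD of log2 CPM was used and to 16 by the root mean square of the CVs of each genotype.

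The tumours were not treated as paired by replicate number. In their deviations from the genotype means, same-numbered libraries had correlations of -0.031, -0.014, 0.0035 and 0.194. Those of differently numbered libraries ran from -0.198 to 0.202, so the values do not settle whether the tumours are paired. With the number as a replicate block TERT had -1.93 and 13 genes were called in all, against 8 without it. The count was 315 with DESeq2 (also with its outlier cutoff off), 285 with limma voom, 14 with library size only, 19 among genes with a mean of at least 5 CPM, 0 without the libraries highest and lowest in TERT (1360 at an unadjusted p under 0.05), 447 without both CDK4KO libraries 1 and 4, and 0 to 183 with 1 library left out.

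Signs turned for values near 0, and the cause was not tested. NOP10 had -0.014 with limma voom, -0.0044 with upper quartile scaling, -0.0021 with the 5 CPM minimum, -0.0040 with the block, -0.063 without both CDK4KO libraries and -0.082 to 0.040 with 1 library left out. Without both CDK4KO libraries ACD had -0.032, STN1 -0.023 and GABPA -0.0066. Without the libraries at the ends of TERT, GAR1 had -0.028 and WRAP53 0.018, and with 1 left out they ran from -0.013 to 0.061 and from -0.049 to 0.028.

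By longest transcript the levels per kilobase were 41.6 for DKC1, 83.4 for NHP2, 27.4 for GAR1, 5.67 for TERF1, 10.6 for TERF2, 20.4 for TINF2, 6.78 for POT1 and 9.29 for ACD. Depth limits TERT most, at 18 counts in its lowest library.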

Other observations

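A further list held box C/D proteins and stand-alone pseudouridine synthases, together with UTP15 and NOP14, and had no part in the choice of the members. All 11 genes of this list were measured, 5 with positive and 6 with negative log2 fold changes. By edgeR, DESeq2 or limma voom 0 passed. In edgeR 3 had an unadjusted p under 0.05, beside 13.0% of all genes. NOP58, a core box C/D protein, was at 62.2 to 65.3 CPM in CDK4WT and 54.7 to 61.3 CPM in CDK4KO (log2 fold change -0.16 ± 0.06). It was lower in CDK4KO without overlap, beside 3.81% of all genes. FBL, the methyltransferase of the box C/D particle, had -0.11 ± 0.06. The pseudouridine synthases PUS1 and TRUB2 had 0.22 ± 0.09 and 0.16 ± 0.07, with overlap between the genotypes, and edgeR adjusted p of the 4 genes ran from 0.274 to 0.472.

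Some genes were named because their pooled CV exceeded that of TERT, so their single high libraries are a description only. PAEP, a secreted lipocalin, stood at 82.9 CPM in CDK4WT replicate 2 against 18.3 to 24.7 CPM in the other CDK4WT libraries, and at 179.8 CPM in CDK4KO replicate 2 against 2.60 to 3.66 CPM. PAGE5, a cancer-testis gene, stood at 13.9 CPM in CDK4KO replicate 2 against 0.0684 to 0.584 CPM, and CPNE7 at 12.9 CPM in CDK4KO replicate 1 against 0.451 to 1.81 CPM. SORCS3, a sorting receptor, was also highest in CDK4WT replicate 1, at 29.9 CPM against 3.48, 11.8 and 5.48 CPM in CDK4WT replicates 2 to 4, and was at 0.0602 to 0.205 CPM in CDK4KO.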
